A study of Homo sapiens with 12 samples.

Results

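A list of 44 human lysosome genes was followed in U937, a myeloid leukaemia line of human origin that resembles early monocytes, on Affymetrix arrays that read each transcript through 1 or more probe sets. For each gene the probe set annotated to that symbol alone was used, and where there were several, the one with the highest mean over the 12 arrays. Of the 44 genes, 43 had such a probe set, out of 19775 genes on the arrays. The probe set of GLB1, the lysosomal beta-galactosidase, also carries the symbol TMPPE, so GLB1 has no value here. CTSL, the cysteine protease cathepsin L, lay between 4.70 and 5.10 on the log2 scale and reached a value of 5 on 1 array. It fell short of the signal limit, a log2 value of 5 on at least 3 arrays, and was not tested. The other 42 genes reached the limit on all 12 arrays and were tested among 14080 genes.

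The study asked how the oncogene EVI1 changes the response of myeloid cells to all-trans retinoic acid (ATRA), a vitamin A derivative that drives myeloid leukaemia cells towards maturation. U937 cells carried an EVI1 expression vector or the empty vector and received 1 µM ATRA, or as much of its solvent DMSO, for 24 h. This gave 4 groups of 3 arrays: EVI1 cells with ATRA, EVI1 cells with DMSO, vector cells with ATRA and vector cells with DMSO. The replicates are described as biological. Whether each transduced line was a clone or a pool is not given in the sources used here, so cell line and EVI1 cannot be told apart. The probe sets for MECOM, the gene that encodes EVI1, do not check the labels, since the highest of them read between 3.03 and 3.60 on every array, under the arrays' lower quartiles of 3.83 to 3.91.

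Lysosomes are acidic organelles that break down proteins, sugars, sulfated glycans and lipids delivered by endocytosis, phagocytosis and autophagy. A rotary proton pump, the V-ATPase, keeps them acidic, and membrane proteins carry the breakdown products and cholesterol out. In macrophages and other phagocytes they also destroy engulfed material. Many lysosome genes carry a short palindrome near their start, the CLEAR element, to which the transcription factor TFEB and its relatives TFE3, MITF and TFEC bind.

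The core letters of that element were looked up in the promoters of the listed genes. RefSeq promoter windows on GRCh38.p14, searched over the 250 bases before each start, were matched by symbol for 32 of the 44 genes. The 12 others were ARSA, ASAH1, ATP6V1A, ATP6V1B2, ATP6V1H, CTSB, HEXA, LAMP2, MANBA, NAGLU, PSAP and SGSH. Some genes have several windows, and a gene was counted if any of its windows held the motif. The core CACGTG was found for 9 of the 32 genes (28.1%), against 7.73% of 27305 genes in the table. The longer TCACGTGA, which contains the core, was found for 5 of the 32 (15.6%), against 1.04% of all genes. By window, the core stood in 9 of 49 (18.4%), against 6.34% of all 35116 windows. The longer form stood in 5 of the 49 (10.2%), against 0.854%. Both motifs read the same on either strand. A match describes the letters only, and says nothing of binding. The 6 promoters that follow are shown because they carry the motifs and belong to genes that behaved differently on the arrays: CTSD and ATP6V0D1 rose with ATRA in EVI1 cells, while LAMP1, GAA, MCOLN1 and CTSA did not pass the test there. Each is written 5′ to 3′ on the gene's strand, ending at the base before the start, with TCACGTGA, or CACGTG where the flanks differ, in capitals. CTSD spans chr11:1763928-1764177 (minus strand), ATP6V0D1 chr16:67481158-67481407 (minus), LAMP1 chr13:113296989-113297238 (plus), GAA chr17:80101331-80101580 (plus), MCOLN1 chr19:7522374-7522623 (plus) and CTSA chr20:45891085-45891334 (plus).
CTSD: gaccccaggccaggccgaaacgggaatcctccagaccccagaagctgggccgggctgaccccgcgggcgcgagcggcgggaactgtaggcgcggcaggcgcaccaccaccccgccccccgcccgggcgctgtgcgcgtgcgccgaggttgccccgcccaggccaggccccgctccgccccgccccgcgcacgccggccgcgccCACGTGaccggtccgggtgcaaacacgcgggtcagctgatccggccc
ATP6V0D1: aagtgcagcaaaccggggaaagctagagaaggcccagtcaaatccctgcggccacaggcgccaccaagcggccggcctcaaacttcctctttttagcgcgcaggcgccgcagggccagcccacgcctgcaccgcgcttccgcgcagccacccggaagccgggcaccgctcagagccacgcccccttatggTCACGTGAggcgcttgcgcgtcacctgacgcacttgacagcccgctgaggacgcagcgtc
LAMP1: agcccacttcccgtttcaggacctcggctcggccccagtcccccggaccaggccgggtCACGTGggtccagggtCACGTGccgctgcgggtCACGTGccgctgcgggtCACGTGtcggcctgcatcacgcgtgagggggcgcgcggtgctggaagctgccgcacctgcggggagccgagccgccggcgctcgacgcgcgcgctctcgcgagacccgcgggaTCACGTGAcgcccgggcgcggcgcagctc
GAA: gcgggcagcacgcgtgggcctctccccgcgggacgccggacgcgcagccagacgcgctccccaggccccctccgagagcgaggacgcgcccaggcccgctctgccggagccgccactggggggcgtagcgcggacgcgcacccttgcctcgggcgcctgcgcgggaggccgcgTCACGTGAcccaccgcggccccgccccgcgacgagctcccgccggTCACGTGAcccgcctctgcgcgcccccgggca
MCOLN1: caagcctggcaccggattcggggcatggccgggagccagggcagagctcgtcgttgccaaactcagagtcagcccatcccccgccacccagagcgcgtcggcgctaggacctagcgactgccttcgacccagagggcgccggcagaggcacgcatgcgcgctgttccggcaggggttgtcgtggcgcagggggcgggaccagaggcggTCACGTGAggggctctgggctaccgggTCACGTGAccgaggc
CTSA: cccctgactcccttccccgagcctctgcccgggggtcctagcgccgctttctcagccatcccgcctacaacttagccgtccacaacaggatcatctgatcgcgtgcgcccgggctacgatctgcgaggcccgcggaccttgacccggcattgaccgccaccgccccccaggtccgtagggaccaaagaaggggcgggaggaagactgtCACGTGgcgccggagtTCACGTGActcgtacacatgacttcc
LAMP1 holds 5 copies of the core in this window, GAA, MCOLN1 and CTSA hold 2 each, and CTSD and ATP6V0D1 hold 1 each.

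Replicate arrays of a group correlated at 0.987 to 0.995. All 7 myeloid markers with a probe set of their own reached the signal limit on at least 3 arrays. Of 16 markers of erythroid, T and NK, B, epithelial, fibroblast and endothelial cells, 7 (EPCAM, CDH1, KRT19, CDH5, COL1A2, MS4A1 and CD2) stayed under a log2 value of 5 on every array. The others did not. By median they were PECAM1 (11.08), NKG7 (7.60), COL1A1 (7.52), CD79A (6.61), HBB (6.14), VWF (5.73), CD3D (5.48), CD3E (5.29) and ALAS2 (5.13). All of these but ALAS2 reached 5 on all 12 arrays, so the markers do not show these lineages to be silent. The mean of the 16 ran from 5.49 to 5.64 on EVI1 ATRA arrays, from 5.48 to 5.64 on EVI1 DMSO arrays, from 5.43 to 5.59 on vector ATRA arrays and from 5.43 to 5.68 on vector DMSO arrays. These ranges overlap. Arrays with the same replicate number deviated together from their group means, so every comparison was also fitted with the replicate number as a block. That fit is given where it changes a call of the 42 genes.

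The mean level of the 42 genes moved with ATRA in both kinds of cell. It was 10.12, 10.36 and 10.41 on the EVI1 ATRA arrays, against 9.81, 9.94 and 10.01 on the EVI1 DMSO arrays. In vector cells it was 10.04, 10.11 and 10.01 with ATRA, against 9.76, 9.74 and 9.89 with DMSO. Every ATRA array thus lay above every DMSO array of the same cells, and the first EVI1 ATRA array lay just above the highest vector ATRA array. The position of each array along the ATRA response of all other tested genes, with the DMSO arrays at a mean of 0 and the ATRA arrays at a mean of 1, was 0.889, 1.24 and 1.52 for EVI1 ATRA, against -0.213, -0.005 and 0.396 for EVI1 DMSO. For vector cells it was 0.630, 0.855 and 0.858 with ATRA, against -0.218, -0.105 and 0.146 with DMSO. The third DMSO array of each kind of cell stood nearest to the ATRA arrays on both measures. RNA was taken from whole cultures, so fewer cells of a kind and less RNA per cell cannot be told apart.

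**Figure D1:**
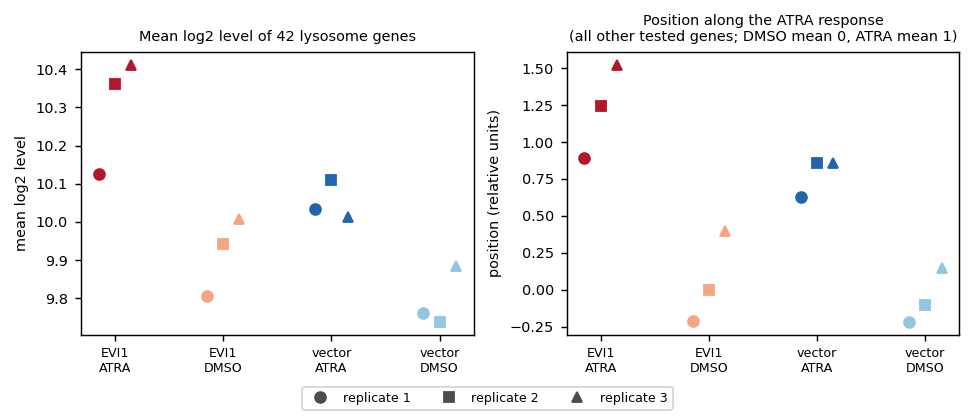
The left panel gives the mean log2 level of the 42 tested lysosome genes on each of the 12 arrays, and the right panel the position of the same arrays along the ATRA response of all other tested genes in relative units (DMSO mean 0, ATRA mean 1). Points are single arrays, shaped by replicate number, and ATRA arrays lie above the DMSO arrays of the same cells in both panels. In the right panel this separation is built in, since the response was taken from the same arrays.

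In EVI1 cells 15 of the 42 genes rose with ATRA, 0 fell and 27 did not pass the test (limma on log2 values, two-sided, Benjamini-Hochberg adjusted p under 0.05 over all 14080 genes). Among all tested genes 15.1% were called in either direction and 7.45% were called higher. No listed gene was lower at an unadjusted p under 0.05 either. The risen genes were the proteases CTSD, TPP1 and CTSB, the glycosidases FUCA1 and HEXA, the lipid-degrading proteins SMPD1, PSAP, GM2A and LIPA, the membrane and transport proteins NPC2, LAPTM5 and CD63, the pump subunits TCIRG1 and ATP6V0D1, and TFEB. The median difference of the 42 genes was 0.32 on the log2 scale, against -0.02 for all tested genes, and 34 of the 42 differences were positive. With the replicate block 22 rose and 1 fell, against 35.7% of all genes called in that fit and 16.3% called higher. The 3 arrays with ATRA lay wholly above the 3 with DMSO for 19 genes and wholly below for 1, against 27.5% of all genes without overlap.

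The count of 15 changed when single arrays were left out, and so did the share of all genes called. Without the second or the third EVI1 ATRA array 5 and 3 genes were called, and 8.14% and 6.37% of all genes. Without the first or the second EVI1 DMSO array 5 and 4 were, and 7.4% and 7.58% of all genes. Without the first EVI1 ATRA array, 19 genes were called, and 22.9% of all genes. SMPD1, NPC2 and ATP6V0D1 were called in each of the 12 fits that left out 1 array. With replicate number 2 left out of all 4 groups, 0 of the 42 genes were called, and 0.0355% of all genes.

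In vector cells 2 genes rose with ATRA by the same test, HEXA and NPC2, and 0 fell (0 lower at an unadjusted p under 0.05), against 3.52% of all genes called and 2.00% called higher. The median difference was 0.18, against -0.00 for all genes, and 32 of 42 differences were positive. With the replicate block 14 genes rose and 2 fell, against 20.0% of all genes called in that fit and 9.96% called higher. The groups did not overlap for 17 higher and 2 lower genes, against 23.4% of all genes. HEXA and NPC2 lost their call without any one of the 3 vector ATRA arrays, or without the first or second vector DMSO array. In those fits 0 of the 42 genes were called, and 0.504% to 1.53% of all genes. Leaving out arrays of the other cells also moved the count, since all groups share 1 estimate of the spread. It was 5 without the first EVI1 ATRA array (4.49% of all genes called). It was 4 without the first or the third EVI1 DMSO array (3.71% and 3.54%). Without the third DMSO array of both kinds of cell, an alternative set with earlier results known, 7 genes were called higher in vector cells: CTSD, GM2A, GUSB, HEXA, NPC2, TCIRG1 and TPP1. In that fit 3.36% of all genes were called.

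**Figure D2:**
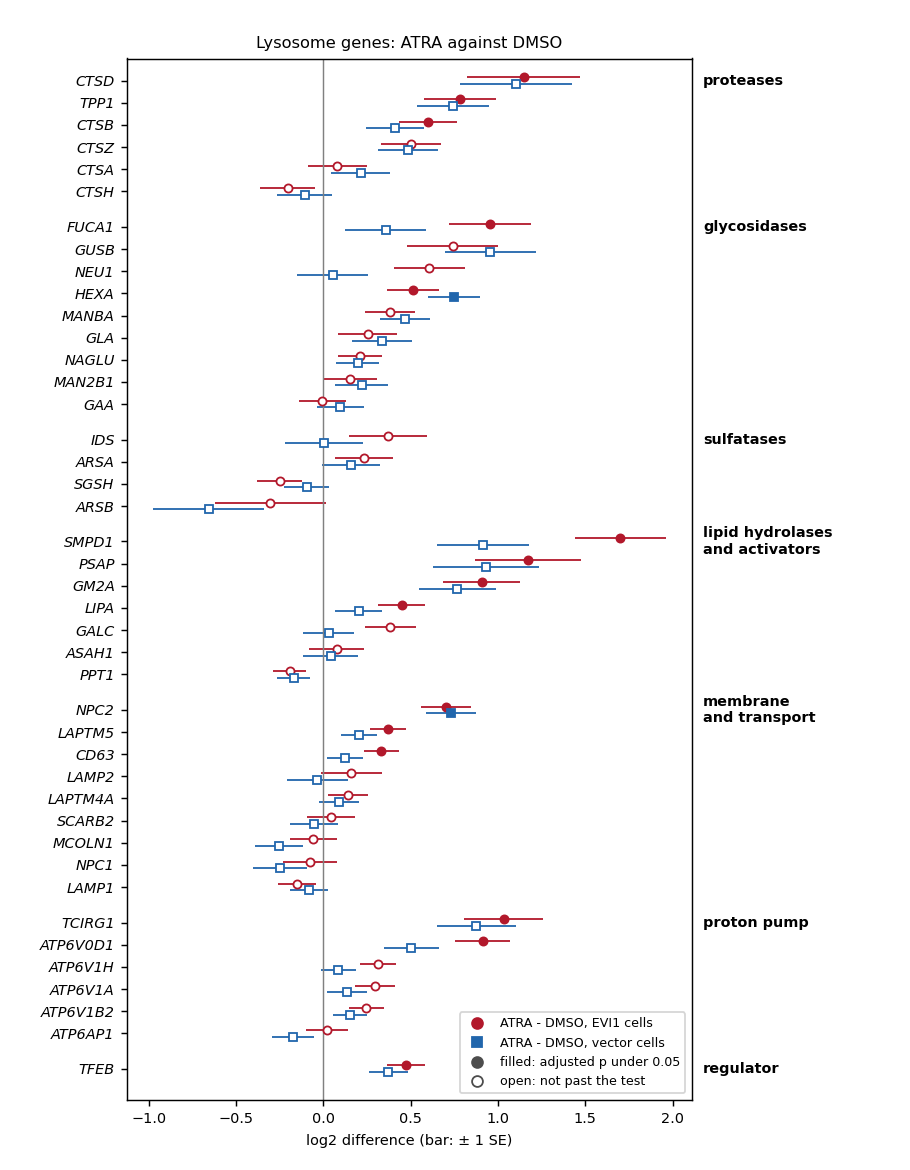
Log2 difference of ATRA minus DMSO (x axis, bars ± 1 SE) for the 42 tested lysosome genes in EVI1 cells and in vector cells, grouped by role, with filled points for an adjusted p under 0.05. In EVI1 cells 15 points are filled and in vector cells 2, while 34 and 32 of the differences lie above 0.

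The differences in response between the 2 kinds of cell were tested directly. The interaction term, the ATRA difference in EVI1 cells minus that in vector cells, called 0 of the 42 genes and 0 of all 14080 (limma, 0% of all genes called). At an unadjusted p under 0.05 it called 0 of the 42 genes as well, and with the replicate block 0. Its median over the 42 genes was 0.10, against -0.02 for all genes, and 30 of 42 values were positive. The largest interaction was that of SMPD1, at 0.79 ± 0.37 (SE), with an adjusted p of 0.998. Being called in EVI1 cells and not in vector cells is therefore not shown to be a difference between them.

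Averaged over both kinds of cell, 18 of the 42 genes rose with ATRA and 0 fell (1 lower at an unadjusted p under 0.05), against 22.4% of all genes called and 11.1% called higher. The 18 genes were the 15 of EVI1 cells and 3 more, the cysteine protease CTSZ at 0.50 (adjusted p = 0.0121), the beta-glucuronidase GUSB at 0.85 (adjusted p = 0.00666) and the beta-mannosidase MANBA at 0.43 (adjusted p = 0.0112). With the block 24 rose and 2 fell, against 40.6% of all genes called in that fit and 19.2% called higher. The block added GLA, NEU1, NAGLU, ATP6V1A, ATP6V1H and ATP6V1B2 to the higher genes, with adjusted p from 0.00715 to 0.0255, and called ARSB (adjusted p = 0.00634) and PPT1 (adjusted p = 0.00844) lower. Of the 18 genes, 16 were called in each of the 12 fits that left out 1 array, while LIPA and CD63 were not. Without replicate number 2 in all groups, 1 gene was called, and 2.2% of all genes.

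Among the proteases, CTSD changed most. CTSD, the aspartic protease cathepsin D, read 11.12, 11.68 and 12.03 in EVI1 ATRA cells, against 10.01, 10.35 and 11.03 in EVI1 DMSO cells. Vector cells read 10.85, 11.59 and 11.53 with ATRA, against 9.73, 10.27 and 10.66 with DMSO. The groups did not overlap in either kind of cell, and the number 3 DMSO arrays came closest to ATRA. The difference was 1.15 ± 0.32 (SE), a 2.21-fold rise, in EVI1 cells (adjusted p = 0.0330). It was 1.10 ± 0.32 in vector cells, where the adjusted p was 0.0897, and 0.000323 with the replicate block. The levels within a group were spread widely, with an SD of 0.46 for EVI1 ATRA and 0.52 for EVI1 DMSO, and the spread followed the replicate number.

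TPP1, a tripeptidyl peptidase, and CTSB, a cysteine protease, moved in the same direction. TPP1 read 10.09, 10.53 and 10.71 in EVI1 ATRA cells, against 9.26, 9.71 and 10.01 in EVI1 DMSO cells. It read 10.02, 10.11 and 10.12 in vector ATRA cells, against 9.17, 9.18 and 9.67 in vector DMSO cells. The ATRA arrays were higher throughout. The difference was 0.78 in EVI1 cells (adjusted p = 0.0259) and 0.74 in vector cells (adjusted p = 0.0775, and 0.00259 with the block). CTSB averaged 11.48 ± 0.23 in EVI1 ATRA cells and 10.88 ± 0.18 in EVI1 DMSO cells (SD, n = 3 each), a difference of 0.60 (adjusted p = 0.0316). In vector cells its difference was 0.41, with an adjusted p of 0.220, and 0.0186 with the block. CTSZ, cathepsin Z, had differences of 0.50 in EVI1 cells and 0.49 in vector cells and passed the test in each only with the block (adjusted p = 0.000887 and 0.00274). The remaining proteases did not pass: CTSA, which protects other hydrolases in a complex and trims peptides, had 0.08 in EVI1 cells. The aminopeptidase CTSH had -0.20 there and -0.11 in vector cells.

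Of 9 tested glycosidases, 2 rose with ATRA in EVI1 cells, where 7.45% of all genes were called higher, and 1 in vector cells, where 2.00% were. FUCA1, which removes fucose from glycoproteins, read 10.34, 10.75 and 11.41 in EVI1 ATRA cells, against 9.60, 9.79 and 10.24 in EVI1 DMSO cells. Levels in vector cells were 9.58, 9.81 and 9.47 with ATRA, against 9.22, 9.23 and 9.34 with DMSO. The 3 EVI1 ATRA arrays were the highest of the 12, and the vector groups did not overlap either. The difference was 0.96 ± 0.23 (SE), or 1.94-fold, in EVI1 cells (adjusted p = 0.0185). In vector cells the difference was 0.36, and the interaction of 0.60 did not pass the test.

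HEXA, the alpha subunit of the beta-hexosaminidase that degrades gangliosides, rose in both kinds of cell. Its levels were 10.91, 11.22 and 11.19 in EVI1 ATRA cells, against 10.46, 10.48 and 10.84 in EVI1 DMSO cells. They were 10.75, 10.83 and 10.75 in vector ATRA cells, against 10.06, 9.75 and 10.27 in vector DMSO cells. No group overlapped its DMSO counterpart. The difference was 0.51 ± 0.15 (SE) in EVI1 cells (adjusted p = 0.0387) and 0.75 ± 0.15 in vector cells (adjusted p = 0.0223), where it was 1.68-fold.

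GUSB had differences as large as those of genes that were called, with more scatter. It read 12.62, 12.91 and 12.96 in EVI1 ATRA cells, against 11.63, 12.02 and 12.62 in EVI1 DMSO cells. Vector cells read 12.47, 12.44 and 12.62 with ATRA, against 11.37, 11.16 and 12.13 with DMSO. The third DMSO array was high in both. In EVI1 cells the difference of 0.74 had an adjusted p of 0.0781, and 0.00694 with the block, and in vector cells that of 0.96 had 0.0714, and 0.00420 with the block. MANBA showed 0.38 in EVI1 cells and 0.47 in vector cells and passed only with the block (adjusted p = 0.00229 and 0.00206). NEU1, a sialidase, showed 0.61 in EVI1 cells, called with the block alone (adjusted p = 0.00500), and 0.05 in vector cells. The other 4 glycosidases were not called in either kind of cell by either fit: the alpha-glucosidase GAA showed -0.01 in EVI1 cells, and the alpha-galactosidase GLA, the alpha-mannosidase MAN2B1 and NAGLU, which cleaves heparan sulfate, showed 0.25, 0.15 and 0.21.

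The 4 sulfatases, which strip sulfate groups from glycans and lipids, did not pass the test with ATRA in either kind of cell on the probe sets used (limma; 0 of 4 at an unadjusted p under 0.05). ARSB, which acts on dermatan sulfate, ran lower, with -0.30 in EVI1 cells and -0.66 in vector cells, and was called lower in vector cells with the block (adjusted p = 0.0180). Its probe set is of a kind that can read related transcripts as well, and so are those used for IDS and ASAH1. The lower value of ARSB stood on the probe set used alone. The 2 others at the signal limit showed -0.17 and -0.06 in EVI1 cells and 0.03 and -0.04 in vector cells. IDS, which acts on heparan and dermatan sulfate, had a difference of 0.37 in EVI1 cells, called with the block (adjusted p = 0.0199), and 0.00 in vector cells. Its other probe sets at the signal limit ran from -0.07 to 0.60 in EVI1 cells and from 0.04 to 0.41 in vector cells. In a fit over all probe sets without the block, only the one at 0.58 in EVI1 cells passed (adjusted p = 0.0140), with 0.38 in vector cells. ARSA, which acts on sulfatides, showed 0.23 in EVI1 cells, and SGSH, which acts on heparan sulfate, showed -0.25.

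The lipid hydrolases and their activators held the gene with the largest ATRA difference of the list. SMPD1, the acid sphingomyelinase, read 8.32, 9.08 and 9.51 in EVI1 ATRA cells, against 6.94, 7.36 and 7.51 in EVI1 DMSO cells. In vector cells it read 8.10, 8.38 and 7.84 with ATRA, against 7.04, 7.15 and 7.39 with DMSO. All ATRA arrays exceeded all DMSO arrays, and the EVI1 ATRA arrays ranged most widely (SD 0.60). The difference was 1.70 ± 0.26 (SE), or 3.25-fold, in EVI1 cells (adjusted p = 0.00235). In vector cells it was 0.91 ± 0.26, or 1.88-fold (adjusted p = 0.0848, and 0.0132 with the block).

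PSAP encodes prosaposin, the precursor of small activators of sphingolipid breakdown, and GM2A the activator that works with beta-hexosaminidase. PSAP read 11.58, 12.21 and 12.78 in EVI1 ATRA cells, against 10.61, 10.99 and 11.45 in EVI1 DMSO cells. It read 11.36, 12.01 and 11.91 in vector ATRA cells, against 10.58, 10.71 and 11.20 in vector DMSO cells. Again no array with ATRA fell below an array with DMSO of the same cells. The difference was 1.17 ± 0.30 (SE), or 2.26-fold, in EVI1 cells (adjusted p = 0.0234) and 0.93 ± 0.30 in vector cells (adjusted p = 0.127, and 0.00171 with the block).

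GM2A read 10.35, 11.11 and 10.87 in EVI1 ATRA cells, against 9.52, 9.89 and 10.20 in EVI1 DMSO cells. It read 10.69, 10.71 and 10.85 in vector ATRA cells, against 9.70, 9.92 and 10.33 in vector DMSO cells. Its mean with ATRA was 10.78 in EVI1 cells and 10.75 in vector cells, within the spread of the arrays. The difference was 0.91 in EVI1 cells (adjusted p = 0.0178) and 0.77 in vector cells (adjusted p = 0.0854, and 0.00411 with the block). LIPA, the acid lipase that frees cholesterol from its esters, rose by 0.45 ± 0.14 (SE) in EVI1 cells (adjusted p = 0.0432) and showed 0.20 in vector cells. PPT1, which removes palmitate from proteins, ran the other way, with -0.19 in EVI1 cells and -0.17 in vector cells, and was called lower in EVI1 cells with the block (adjusted p = 0.0380). The acid ceramidase ASAH1 and the galactosylceramidase GALC showed 0.08 and 0.38 in EVI1 cells and were not called.

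Membrane and transport proteins split. NPC2, the soluble protein that hands cholesterol to NPC1, read 12, 12.47 and 12.32 in EVI1 ATRA cells, against 11.31, 11.70 and 11.67 in EVI1 DMSO cells. Its levels in vector cells were 11.74, 11.88 and 11.64 with ATRA, against 10.96, 10.96 and 11.14 with DMSO. The groups were clearly apart. The difference was 0.70 ± 0.14 (SE) in EVI1 cells (adjusted p = 0.00840) and 0.73 ± 0.14 in vector cells (adjusted p = 0.0210). LAPTM5, a lysosomal membrane protein of blood cells, rose by 0.37 in EVI1 cells (adjusted p = 0.0320), and the tetraspanin CD63 by 0.33 (adjusted p = 0.0478). In vector cells these showed 0.20 and 0.12.

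LAMP1, a main glycoprotein of the lysosomal membrane, did not pass the test. It read 12.72, 12.55 and 12.51 in EVI1 ATRA cells, against 12.87, 12.73 and 12.63 in EVI1 DMSO cells. In vector cells it read 12.85, 12.65 and 12.60 with ATRA, against 12.89, 12.72 and 12.74 with DMSO. The groups overlapped, and each ATRA array lay below the DMSO array of the same number. The differences were -0.15 ± 0.11 (SE, 95% interval -0.39 to 0.09) in EVI1 cells and -0.08 ± 0.11 (-0.32 to 0.16) in vector cells, and neither fit called them. LAMP1 was the gene with most copies of the core motif among the promoters printed above. The calcium channel MCOLN1, with 2 copies of the longer motif, showed -0.06 in EVI1 cells and -0.25 in vector cells, called lower there with the block (adjusted p = 0.0490). SCARB2, which carries beta-glucocerebrosidase to the lysosome, LAPTM4A and the cholesterol exporter NPC1 showed 0.04, 0.14 and -0.07 in EVI1 cells, and none was called.

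Of the 6 proton pump genes, 2 rose with ATRA in EVI1 cells, where 7.45% of all genes were called higher. ATP6V0D1, a subunit that links the membrane ring to the rotor, read 10.63, 10.75 and 11.07 in EVI1 ATRA cells, against 10.00, 9.62 and 10.09 in EVI1 DMSO cells. It read 10.40, 10.27 and 10.04 in vector ATRA cells, against 9.87, 9.61 and 9.72 in vector DMSO cells. The ATRA arrays lay above the DMSO arrays in both. The difference was 0.91 ± 0.16 (SE) in EVI1 cells (adjusted p = 0.00368) and 0.50 ± 0.16 in vector cells (adjusted p = 0.111, and 0.0325 with the block).

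TCIRG1, the a3 subunit of the pump's membrane part, known from osteoclasts and phagocytes, read 9.03, 8.51 and 9.17 in EVI1 ATRA cells, against 7.66, 7.61 and 8.34 in EVI1 DMSO cells. It read 8.72, 8.30 and 8.41 in vector ATRA cells, against 7.61, 7.34 and 7.85 in vector DMSO cells. The third DMSO array was again the highest of its group. The difference was 1.03 ± 0.23 (SE), or 2.05-fold, in EVI1 cells (adjusted p = 0.0113) and 0.88 ± 0.23 in vector cells (adjusted p = 0.0578, and 0.00315 with the block). ATP6V1A, ATP6V1B2 and ATP6V1H, subunits of the pump's cytosolic part, showed 0.30, 0.25 and 0.31 in EVI1 cells. ATP6V1A and ATP6V1H were called there with the block (adjusted p = 0.0102 and 0.00813). The accessory subunit ATP6AP1 showed 0.02 in EVI1 cells.

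TFEB read 9.96, 10.09 and 10.15 in EVI1 ATRA cells, against 9.54, 9.66 and 9.58 in EVI1 DMSO cells. In vector cells it read 9.63, 9.89 and 9.68 with ATRA, against 9.20, 9.44 and 9.44 with DMSO. Neither pair of groups overlapped. Its difference was 0.47 ± 0.11 (SE), or 1.39-fold, in EVI1 cells (adjusted p = 0.0142) and 0.37 ± 0.11 in vector cells (adjusted p = 0.0897, and 0.00685 with the block). The other TFEB probe set showed 0.33 in EVI1 cells and 0.10 in vector cells and was not called in either (adjusted p = 0.0813 and 0.852 in a fit over all probe sets). These are transcript levels, and the activity of the factor was not measured. Among 12 risen genes with a promoter entry, 3 held CACGTG (25.0%) and 1 held TCACGTGA (8.33%). Among 18 tested genes that did not pass in EVI1 cells, 6 held the core (33.3%) and 4 held the longer form (22.2%). The shares of all genes were 7.73% and 1.04%. The 12 genes had 25 windows and the 18 genes 22. A link between the motif and the ATRA difference was not tested.

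**Figure D3:**
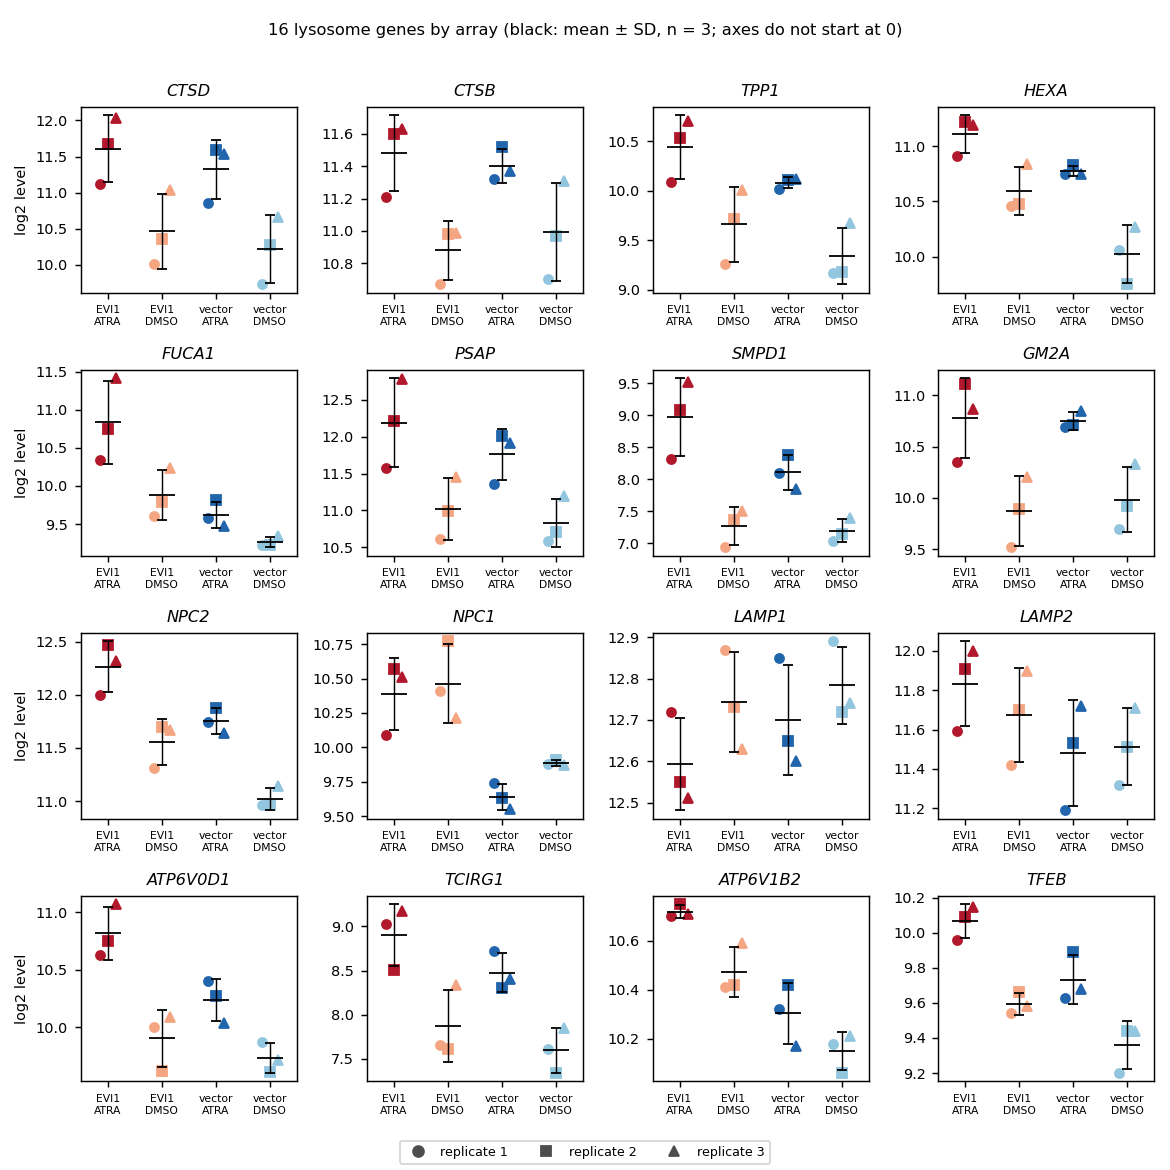
Log2 levels of 16 lysosome genes on each array, 1 panel a gene, with the groups in the order EVI1 ATRA, EVI1 DMSO, vector ATRA and vector DMSO, symbols for the replicate number and black bars for the mean ± SD (n = 3); axes do not start at 0. SMPD1, NPC2, HEXA and TFEB show ATRA arrays above DMSO arrays in both kinds of cell, NPC1 separates EVI1 from vector cells, and the LAMP1 groups overlap.

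EVI1 cells were next set against vector cells. Under ATRA 3 of the 42 genes were higher in EVI1 cells, FUCA1, NPC1 and ATP6V1B2, and 0 were lower (0 at an unadjusted p under 0.05), against 5.61% of all genes called and 3.28% called higher. The median difference was 0.21, against -0.01 for all genes, and 33 of 42 differences were positive. With the block 15 genes were higher and 0 lower, against 25.3% of all genes called in that fit and 13.0% called higher. The groups did not overlap for 12 higher and 2 lower genes, against 21.0% of all genes. Without the first EVI1 ATRA array 9 genes were called (13.9% of all genes), and without the second or the third 1 (2.44% and 1.87%). Without the third vector ATRA array 0 were (2.04%). Without the first or second vector ATRA array, or the first vector DMSO array, 2 were (2.86%, 2.7% and 4.28%). These comparisons share their arrays with the ATRA comparisons, so the values are given beside each other and not as separate support.

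Under DMSO 0 of the 42 genes were called in either direction, against 1.21% of all genes called and 0.533% called higher (limma; 6 genes had an unadjusted p under 0.05, 5 higher and 1 lower). With the block 3 were higher, HEXA at 0.57 (adjusted p = 0.0205), NPC1 at 0.58 (adjusted p = 0.0282) and NPC2 at 0.54 (adjusted p = 0.0134). ARSB was lower at -0.66 (adjusted p = 0.0351), against 7.19% of all genes called in that fit and 4.20% called higher. Other ARSB probe sets at the signal limit showed 0.16 and 0.03. Such other probe sets showed 0.08 and 0.22 for HEXA and 0.15 for NPC1. The median difference was 0.12, against 0.02 for all genes. The groups did not overlap for 7 higher genes and 1 lower gene, against 14.6% of all genes. With the probe set second by mean level in place of the one used, IDS and LAMP2 were called higher under DMSO. In that fit 0.958% of all genes were called. In a fit over all probe sets, that LAMP2 probe set showed 0.62 (adjusted p = 0.0459), against 0.16 on the one used, and 2 other IDS probe sets showed 0.70 (adjusted p = 0.0406) and 0.63 (adjusted p = 0.0379), against 0.39 on the one used.

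NPC1, the membrane protein that exports cholesterol from lysosomes, separated the cell lines under both agents. It read 10.09, 10.57 and 10.51 in EVI1 ATRA cells, against 9.74, 9.63 and 9.55 in vector ATRA cells. With DMSO it read 10.41, 10.77 and 10.21 in EVI1 cells, against 9.88, 9.91 and 9.87 in vector cells. All 6 EVI1 arrays exceeded all 6 vector arrays. The difference was 0.75 ± 0.15 (SE), or 1.68-fold, under ATRA (adjusted p = 0.0173) and 0.58 ± 0.15 under DMSO (adjusted p = 0.115). NPC2, its partner, differed by 0.51 under ATRA, with an adjusted p of 0.0622, and 0.00767 with the block.

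FUCA1 differed by 1.21 ± 0.23 (SE), or 2.32-fold, under ATRA (adjusted p = 0.0130) and by 0.61 ± 0.23 under DMSO (adjusted p = 0.345). By the array values given above, all its EVI1 ATRA arrays exceeded the vector ATRA arrays, and the DMSO arrays did likewise. ATP6V1B2 read 10.70, 10.75 and 10.71 in EVI1 ATRA cells, against 10.32, 10.42 and 10.17 in vector ATRA cells. With DMSO it read 10.41, 10.42 and 10.59 in EVI1 cells, against 10.18, 10.06 and 10.21 in vector cells. Its EVI1 ATRA arrays lay within an SD of 0.03. The difference was 0.42 ± 0.10 (SE) under ATRA (adjusted p = 0.0316) and 0.32 ± 0.10 under DMSO (adjusted p = 0.182).

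Under ATRA the replicate block added 12 genes to these 3. They were NEU1 at 0.51, IDS at 0.76, ASAH1 at 0.27, SMPD1 at 0.86, LIPA at 0.37, PSAP at 0.43, LAMP2 at 0.35, CD63 at 0.32, NPC2, ATP6V0D1 at 0.58, ATP6AP1 at 0.35 and TFEB at 0.33, with blocked adjusted p from 0.00116 for IDS to 0.0445 for PSAP. Without the block these 12 had adjusted p of at least 0.0525 on the probe sets used. Other probe sets of IDS and LAMP2 passed under ATRA without the block, in a fit over all probe sets. For IDS those at 1.03, 0.93, 0.83 and 0.67 passed (adjusted p from 0.00572 to 0.0359), and those at 0.50, 0.15 and -0.03 did not. For LAMP2 those at 0.69 and 0.82 passed (adjusted p = 0.0146 and 0.0149), and that at 0.58 did not.

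Averaged over both agents, 7 genes were higher in EVI1 cells and 0 lower (1 at an unadjusted p under 0.05), against 9.69% of all genes called and 5.70% called higher. They were NPC1 at 0.66 (adjusted p = 0.00303), FUCA1 at 0.91 (adjusted p = 0.00523), ATP6V1B2 at 0.37 (adjusted p = 0.00654), NPC2 at 0.53 (adjusted p = 0.00747), HEXA at 0.45 (adjusted p = 0.0210), TFEB at 0.28 (adjusted p = 0.0390) and IDS at 0.57 (adjusted p = 0.0413). In a fit over all probe sets, other probe sets at the signal limit did not pass for HEXA (-0.04 and 0.165), TFEB (0.13) or NPC1 (0.135). The TFEB and IDS probe sets used did not pass in that fit either (adjusted p = 0.0671 and 0.0588). Other IDS probe sets at 0.845, 0.76, 0.73, 0.69 and 0.44 passed there (adjusted p from 0.000406 to 0.0162), and those at 0.16 and 0.02 did not. The median difference of the 42 genes was 0.20, against 0.00 for all genes. With the block 20 genes were higher and 2 lower, against 28.6% of all genes called in that fit and 16.0% called higher. The 13 higher genes that the block added were CTSA, CTSD, TPP1, GUSB, ASAH1, SMPD1, LIPA, PSAP, LAMP2, CD63, ATP6V0D1, ATP6AP1 and TCIRG1, with adjusted p from 0.00272 to 0.0453. The lower genes were ARSB (adjusted p = 0.0108) and GALC (adjusted p = 0.0464). Other ARSB probe sets at the signal limit showed 0.06 and 0.02, against -0.48 on the one used. NPC1, NPC2, ATP6V1B2 and FUCA1 were called in each of the 12 fits that left out 1 array. The count was 11 without the first EVI1 ATRA array (14.9% of all genes called). It was 4 without the second or the third EVI1 ATRA array, the third EVI1 DMSO array or the third vector ATRA array (6.17% to 7.09%).

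**Figure D4:**
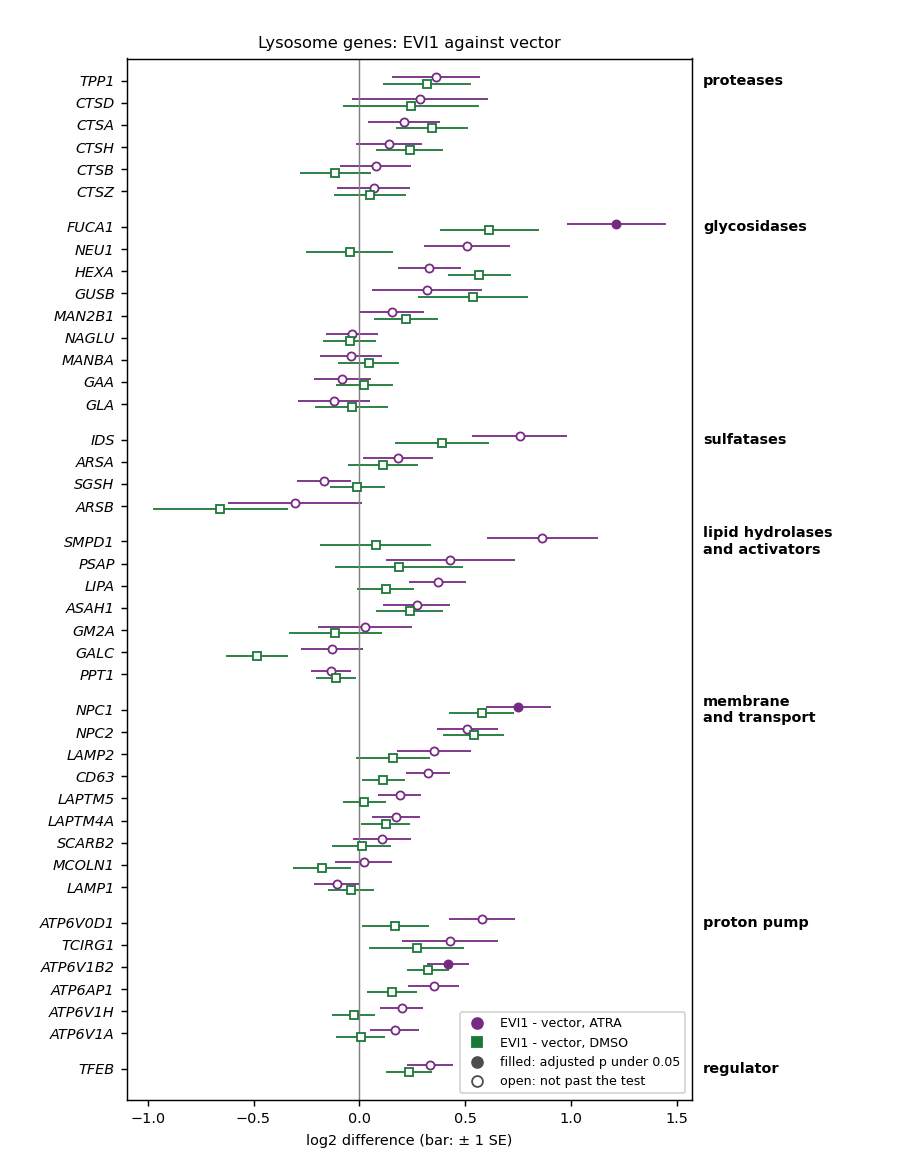
Log2 difference of EVI1 minus vector cells (x axis, bars ± 1 SE) for the 42 tested lysosome genes under ATRA and under DMSO, grouped by role, with filled points for an adjusted p under 0.05. FUCA1, NPC1 and ATP6V1B2 are filled under ATRA and no gene is under DMSO.

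Several probe sets of a gene did not always behave alike. In EVI1 cells 44 of 49 other probe sets of the listed genes at the signal limit had the same sign of ATRA difference as the one used, and in vector cells 39 of 49. LAMP2, a second main membrane glycoprotein whose transcript is spliced into isoforms with different ends, showed 0.16 in EVI1 cells and -0.03 in vector cells on the probe set used. The LAMP2 probe set second by mean level showed 0.72 in EVI1 cells and 0.65 in vector cells. The third showed 0.50 in EVI1 cells and 0.14 in vector cells, and the fourth showed 0.70 in EVI1 cells and 0.42 in vector cells. In a fit over all probe sets, the second rose in both (adjusted p = 0.00572 in EVI1 cells and 0.0283 in vector cells). Which isoform each probe set reads was not tested. For SMPD1 the probe set used gave 1.70 in EVI1 cells, while the second to the fourth by mean level gave -0.04, 0.12 and 1.15. All 4 probe sets of LAMP1 had negative ATRA differences in both kinds of cell.

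**Figure D5:**
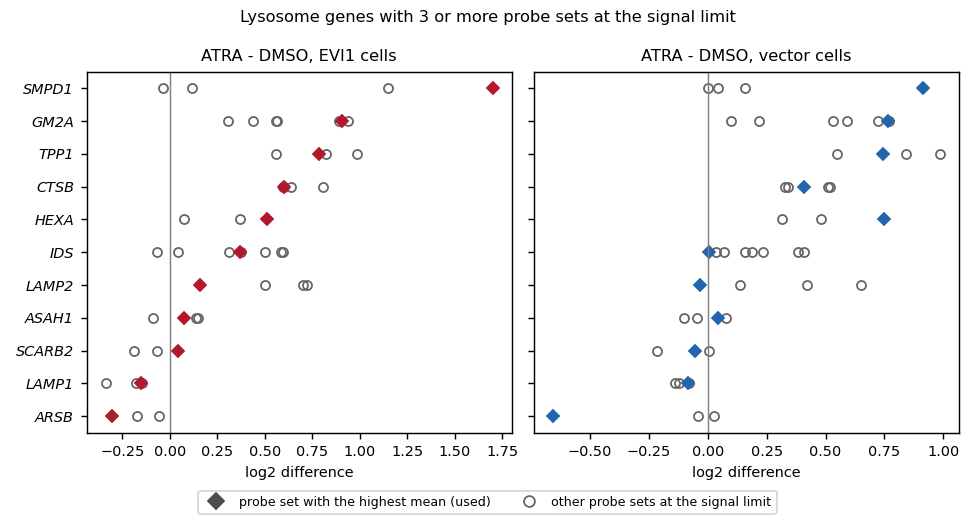
ATRA minus DMSO log2 differences (x axis) of every probe set at the signal limit for 11 lysosome genes with 3 or more such probe sets, in EVI1 cells (left) and vector cells (right). Filled diamonds are the probe sets used and open circles the others; the LAMP1 probe sets all lie below 0, and in EVI1 cells 1 SMPD1 probe set lies at -0.04 and the one used at 1.70.

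Other genes of the pathway, beyond the 44, were counted from 5 related lists. Of 28 tested further hydrolases and their partners, 9 rose with ATRA in EVI1 cells and 0 fell (limma; 3 lower at an unadjusted p under 0.05), against 15.1% of all genes called and 7.45% called higher. Their median was 0.31, against -0.02 for all genes. With the replicate block 14 rose and 2 fell, against 35.7% of all genes called in that fit and 16.3% called higher. Those with the largest differences were the cysteine protease CTSS at 1.04 (adjusted p = 0.00232), the glycoprotein CREG1 at 0.94, the carboxypeptidase SCPEP1 at 0.92 and OSTM1, the partner of a chloride transporter, at 0.84. In vector cells 1 of the 28 rose, CTSS at 0.74 (adjusted p = 0.0292), against 2.00% of all genes called higher. With the block 11 rose there, against 20.0% of all genes called in that fit and 9.96% called higher. Of 11 further pump subunits, 2 rose in EVI1 cells, ATP6V1D at 0.66 and ATP6V0E1 at 0.41, and ATP6V0A2 fell by 0.46. With the block 4 of the 11 rose there and 1 fell, and in vector cells 1 rose and 1 fell, beside the same blocked shares of all genes. None of 13 genes for sorting to the lysosome, such as mannose 6-phosphate receptors and adaptors, was called with ATRA in either kind of cell (limma; 4 of 13 at an unadjusted p under 0.05 in EVI1 cells and 1 in vector cells). When the replicate number was blocked, IGF2R and AP3B1 rose in EVI1 cells, NAGPA, GGA1, AP1M1 and AP1S1 fell there, and GGA2 rose in vector cells.

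TFEB's relatives and the machinery that senses nutrients at the lysosome were counted next. Of 15 such genes 5 rose with ATRA in EVI1 cells, with TFEC at 0.73 (adjusted p = 0.0285), the Ragulator subunit LAMTOR2 at 0.64, TFE3 at 0.44 (adjusted p = 0.0268) and the small GTPase RRAGA at 0.44 leading by size, against 7.45% of all genes called higher. With the block 6 rose. Of 11 autophagy genes 2 rose, MAP1LC3B at 1.22 (adjusted p = 0.0175) and WIPI1 at 1.12 (adjusted p = 0.0360), both of which act in the growth of autophagosomes, and with the block 4 rose and 1 fell. The blocked fit called 35.7% of all genes in EVI1 cells, and 16.3% higher. In vector cells 0 of the 15 and 0 of the 11 were called (limma; 2 and 3 at an unadjusted p under 0.05). In the blocked fit TFEC, LAMTOR2 and LAMTOR4 rose there, and SQSTM1 and RAB7A fell, against 20.0% of all genes called and 9.96% called higher.

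Between the cell lines under ATRA, where 5.61% of all genes were called and 3.28% called higher, the related genes went both ways. From the list of hydrolases and their partners, OSTM1 was higher in EVI1 cells at 0.92. From the same list NAAA, an acid amidase, was lower at -0.74, HGSNAT, the heparan acetyltransferase, at -0.67 and the dipeptidyl peptidase CTSC at -0.36. Of the pump subunits 4 of 11 were higher: ATP6V1E1 at 0.51, ATP6V1C1 at 0.47, ATP6V0E1 at 0.45 and ATP6V1D at 0.44. The mannose 6-phosphate receptor IGF2R was higher at 0.93 and the adaptor subunit AP1S1 at 0.58, out of 13 sorting genes. TFEC at 0.96, LAMTOR4 at 0.62 and TFE3 at 0.45 were higher among 15, and WIPI1 at 1.26 and MAP1LC3B at 1.13 among 11. With the block the higher and lower genes under ATRA numbered 6 and 4 of the 28 hydrolases, 4 and 0 of the pump subunits, 2 and 1 of the sorting genes, 7 and 0 of TFEB's relatives and nutrient sensors, and 4 and 0 of the autophagy genes. That fit called 25.3% of all genes, and 13.0% higher. Under DMSO, where 1.21% of all genes were called, HGSNAT was lower at -0.75, and LAMTOR4 at 0.73 and AP1S1 at 0.70 were higher.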

How the data were processed

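The 12 arrays received labelled RNA that had been amplified from 250 ng of each sample, per the labels' protocols. Per the submitters' processing notes, the authors made the deposited log2 levels with RMA (Expression Console 1.3 of Affymetrix), and the settings are not given in the sources used here. RMA compresses differences of weak transcripts, so differences are those of the log2 values. Of 54675 probe sets, 41097 carried 1 symbol and stood for 19775 genes, 1 probe set a gene (highest mean). Genes at a log2 value of 5 on at least 3 arrays (14080) were tested with limma 3.58.1 in R 4.3.3, 1 fit of all 4 groups (8 residual degrees of freedom), two-sided, with Benjamini-Hochberg adjustment over all tested genes and a threshold of 0.05. A number of 3 arrays a group limits the precision.

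Pairing was checked from the arrays: deviations of same-numbered arrays from their group means correlated at 0.41 to 0.70 in 18 of 18 pairs, so numbers were taken to pair samples and the block was fitted as an alternative. The other alternatives were the second or mean probe set, no or a higher signal limit, rescaling, trend and robust moderation, and leaving out arrays. The fit was tested on simulated data. The 44 genes, their roles, the related lists and the tests were chosen with earlier results of these data known. All listed genes are accounted for, and from the related lists at most 4 called genes each were named, by the size of the difference. No set test was run. Promoter sequences and matches are descriptions from RefSeq.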

Additional observations from a re-analysis of the deposited data

How the results depend on the processing

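Over the 42 tested lysosome genes, all comparisons and all alternatives, 7021 single-gene differences were recomputed. Of these, 263 turned sign, 2 of them among the 1074 of genes called as reported. On the threshold, 160 passed it in addition and 230 no longer passed it. Among differences called in either setting, 3 turned sign, all with the second probe set by mean: LAMP2 with ATRA in vector cells at 0.65, SMPD1 with ATRA in EVI1 cells at -0.037 and SMPD1 with ATRA averaged over both kinds of cell at -0.018. The cause was not tested.

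With the replicate block the genes called higher were 14 for ATRA in vector cells, 15 for EVI1 under ATRA, 3 for EVI1 under DMSO and 20 for EVI1 averaged over both agents. Those called lower were 2 for ATRA in vector cells, 1 for ATRA in EVI1 cells, 1 for EVI1 under DMSO, 2 for ATRA averaged and 2 for EVI1 averaged. Of all genes, the block called 20.0% for ATRA in vector cells, 35.7% for ATRA in EVI1 cells and 40.6% for ATRA averaged. For EVI1 it called 25.3% under ATRA, 7.19% under DMSO and 28.6% averaged. The block changed no call of the interaction. With the second probe set 9 genes were called higher for ATRA in EVI1 cells, 2 for EVI1 under DMSO and 4 for EVI1 averaged. The shares of all genes called there were 11.9%, 0.958% and 7.07%. With the mean of all probe sets 6 were higher for EVI1 under ATRA (5.65% of all genes called) and 1 lower for ATRA averaged (23%). Trend and robust moderation gave the same counts, 6 and 1, with 6.14% and 23.3% of all genes called. Without both DMSO arrays numbered 3, 7 were higher for ATRA in vector cells, and 3.36% of all genes were called.

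Leaving out arrays gave 0 to 5 genes called higher for ATRA in vector cells, 0 to 19 for ATRA in EVI1 cells, 0 to 9 for EVI1 under ATRA, 1 to 20 for ATRA averaged and 0 to 11 for EVI1 averaged. The shares of all genes called in these fits ran, in the same order, from 0% to 4.49%, 0.0355% to 22.9%, 0.107% to 13.9%, 2.2% to 27.2% and 1.1% to 14.9%. Leaving out a replicate number in all 4 groups keeps 2 arrays a group. Each group holds 3 arrays, and their number limits the precision.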

Other observations

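The agent accounted for a median of 37.7% of the variance of the 42 lysosome genes over the 12 arrays, the cell line for 13.4%, their interaction for 1.92% and the spread within groups for 33.9%. The split held no term for the replicate number, so variance that followed it is counted within groups. Each share is a separate median over the genes, so the shares need not add up to the whole. These shares describe the 12 arrays and were not tested.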
